A study of Mus musculus with 576 samples.

Results

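The cells described here were single mouse bone marrow cells sorted as CD150+, CD48-, c-Kit+ and Sca-1+, a surface pattern of blood stem cells, that came from LPS-treated mice and were labelled negative for the p27 marker. They were chosen by their labels (LPS_treated and p27_negative) and kept where at least 50000 reads fell in genes and at least 1000 genes had a read. This left 92 of 96 cells, among 547 kept cells of 576 in the whole series. The 4 cells removed were numbered 29 to 32 and held 5750 to 12057 gene reads. The study sorted 96 cells in each of 6 groups, control (Ctrl) and LPS_treated mice by p27_high, p27_low and p27_negative. The gate was shared by every group, and the labels set the groups apart by treatment and marker class. They name no plate or batch, so other differences between the groups cannot be told. Cells from LPS-treated marrow of low p27 (90 kept) and high p27 (93 kept), and p27 negative cells from control marrow (95 kept), are used below for comparison. Strain, genotype, age, LPS dose, time after LPS, number of animals and the way the p27 marker was read are not stated in the labels. Because no animal or culture was named, each group counted as 1 sample. No test between groups was made. Intervals of levels and ratios cover counting error of reads only. Intervals of shares of cells treat the cells as independent draws. Neither covers differences between animals.

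LPS, a component of the outer membrane of Gram-negative bacteria, is sensed through TLR4 and induces NF-kB targets and, through type I interferon, a large set of antiviral genes. Blood stem cells are mostly quiescent in unperturbed marrow and can be drawn into the cell cycle by inflammation. The protein p27, encoded by Cdkn1b, holds cyclin-dependent kinases inactive and accumulates in resting cells. Cdkn1b stood at 74.9 CPM here, 62.9 CPM in LPS p27 low, 108 CPM in LPS p27 high and 81.9 CPM in control p27 negative cells, so its RNA did not follow the order of the marker classes. The labels do not say whether the marker reads RNA or protein, and these values do not check it.

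Most LPS p27 negative cells held many cell cycle transcripts (at least 20 of 40 G2 and mitosis genes in 80 of 92 cells). Interferon response genes were high in 44 of the 92 cells and low in 40, and genes for ribosome building were found in every cell. Levels are given as CPM, reads of a gene per 1000000 gene reads, over the summed reads of the 92 cells or in single cells. The 4 genes taken as markers of these cells were all present. Ccna2, cyclin A2 of S and G2 phase, stood at 501 CPM (95% Poisson interval 495 to 508). Mki67, which encodes the proliferation antigen Ki-67, stood at 656 CPM (649 to 663). Cxcl10, an interferon-induced chemokine, stood at 7750 CPM (7725 to 7775), and Gnl3, the nucleolar GTPase nucleostemin, at 457 CPM (451 to 463). In mm10 these genes lie at chr3:36564865-36572150 (Ccna2, ENSMUSG00000027715), chr7:135689784-135716361 (Mki67, ENSMUSG00000031004), chr5:92346638-92348889 (Cxcl10, ENSMUSG00000034855) and chr14:31012433-31019152 (Gnl3, ENSMUSG00000042354). Per kilobase of annotated exon, Cxcl10 (3441 CPM per kb) lay far above Ccna2 (123), Gnl3 (74.9) and Mki67 (65.2).

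Promoters of a few chosen genes that moved together from cell to cell are shown first, with matches to known motifs marked. Whether these letters act on the genes in these cells was not tested. The promoters are the 250 bases before the annotated start site in RefSeq (GRCm38.p6, the patched mm10 build), on the strand of the gene. In Cxcl10 (chr5:92348890-92349139, minus strand), Rsad2 (chr12:26456453-26456702, minus strand) and Ifit1 (chr19:34640639-34640888, plus strand), capitals mark matches to the interferon-stimulated response element, GAAANNGAAA on either strand.
Cxcl10: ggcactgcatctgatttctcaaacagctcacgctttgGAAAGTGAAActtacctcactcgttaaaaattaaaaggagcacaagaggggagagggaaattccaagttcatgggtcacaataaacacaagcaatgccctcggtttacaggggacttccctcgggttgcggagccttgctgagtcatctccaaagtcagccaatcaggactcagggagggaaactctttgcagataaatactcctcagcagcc
Rsad2: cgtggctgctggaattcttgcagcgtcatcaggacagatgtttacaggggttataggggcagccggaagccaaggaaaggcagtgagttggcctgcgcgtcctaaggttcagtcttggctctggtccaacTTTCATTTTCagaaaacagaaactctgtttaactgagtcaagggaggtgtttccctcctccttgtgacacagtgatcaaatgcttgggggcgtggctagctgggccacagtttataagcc
Ifit1: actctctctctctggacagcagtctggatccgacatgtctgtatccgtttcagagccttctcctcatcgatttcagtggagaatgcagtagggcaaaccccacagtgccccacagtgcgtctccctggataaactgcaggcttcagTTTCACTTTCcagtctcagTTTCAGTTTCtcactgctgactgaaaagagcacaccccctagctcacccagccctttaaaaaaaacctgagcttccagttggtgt
In Mki67 (chr7:135716380-135716629, minus strand) and Hmgb2 (chr8:57511593-57511842, plus strand), capitals mark TTTGAA, the cell cycle homology region found in many G2 and M phase promoters, and CCAAT, the box bound by NF-Y, on either strand.
Mki67: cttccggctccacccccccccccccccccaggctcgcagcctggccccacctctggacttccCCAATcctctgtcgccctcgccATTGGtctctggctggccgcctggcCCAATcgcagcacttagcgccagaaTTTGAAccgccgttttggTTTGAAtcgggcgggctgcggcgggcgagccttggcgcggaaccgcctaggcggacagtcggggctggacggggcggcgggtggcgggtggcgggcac
Hmgb2: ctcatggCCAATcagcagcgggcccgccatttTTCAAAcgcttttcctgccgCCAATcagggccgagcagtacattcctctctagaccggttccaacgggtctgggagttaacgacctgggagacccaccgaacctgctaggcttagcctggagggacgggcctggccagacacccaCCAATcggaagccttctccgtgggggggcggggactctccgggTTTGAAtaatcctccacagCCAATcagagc
Cxcl10 and Rsad2 had 1 response element match each and Ifit1 had 2, while Mki67 had 2 cell cycle homology matches with 3 CCAAT boxes and Hmgb2 had 2 with 4.

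Over the lists, the response element letters occurred in 21 of the 41 interferon response genes that the promoter table held, or 51.2%, against 3.46% of all 27025 genes in the table. CCAAT occurred in 25 of 33 matched G2 and mitosis genes (75.8% against 37.5% of all genes) and TTTGAA in 10 of 33 (30.3% against 18.3%). TTTGAA also occurred in 11 of 41 interferon genes (26.8%). Among matched genes with at least 10 CPM in these cells the shares were 3.54% for the response element, 40.9% for CCAAT, 12.8% for TTTGAA, 1.72% for the NF-kB form given next and 10.4% for the E-box. GGGNNTTTCC, a form of the NF-kB site, occurred in 4 of 14 matched chemokine and cytokine genes (28.6% against 1.65%), and the E-box CACGTG in 2 of 31 matched ribosome biogenesis genes (6.45% against 6.86%). Both strands were searched, matches of different motifs overlapped in 82 genes of the table and in none of the printed promoters, and a match describes letters only.

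The most abundant transcript outside the mitochondrial genes was an entry annotated as ribosomal RNA, CT010467.1, with 51684 CPM, followed by Serpina3g, an intracellular serine protease inhibitor, with 12429 CPM. Actb, the cytoskeletal beta actin, followed with 11087 CPM and Cxcl10 with 7750 CPM. B2m and H2-K1, the light chain and a heavy chain of MHC class I, held 5705 and 3769 CPM. Car2, a carbonic anhydrase, held 4131 CPM and Slc34a2, a sodium-phosphate cotransporter, 3815 CPM. Rpl4, a ribosomal protein, and Cnbp, a nucleic acid binding zinc finger protein, completed the 10 highest with 3540 and 3449 CPM. Per kilobase of exon the order among protein-coding genes was led by B2m (6633), Serpina3g (5904), Actb (4138), Cxcl10 (3441) and the antiviral membrane protein Ifitm3 (3011). The 13 mitochondrially encoded protein genes summed to 17377 CPM.

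These top genes differed sharply in how evenly they were spread. Rpl4 ranged from 1413 through a median of 3484 to 5357 CPM in single cells. Actb ranged from 3740 through 10188 to 18879 CPM. Both were high in every cell, whereas Serpina3g ranged from 104 through 5825 to 55110 CPM and Cxcl10 from 13.6 through 1951 to 41020 CPM. B2m, by contrast with Cxcl10, stayed between 1931 and 16179 CPM around a median of 5449.

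**Figure D1:**
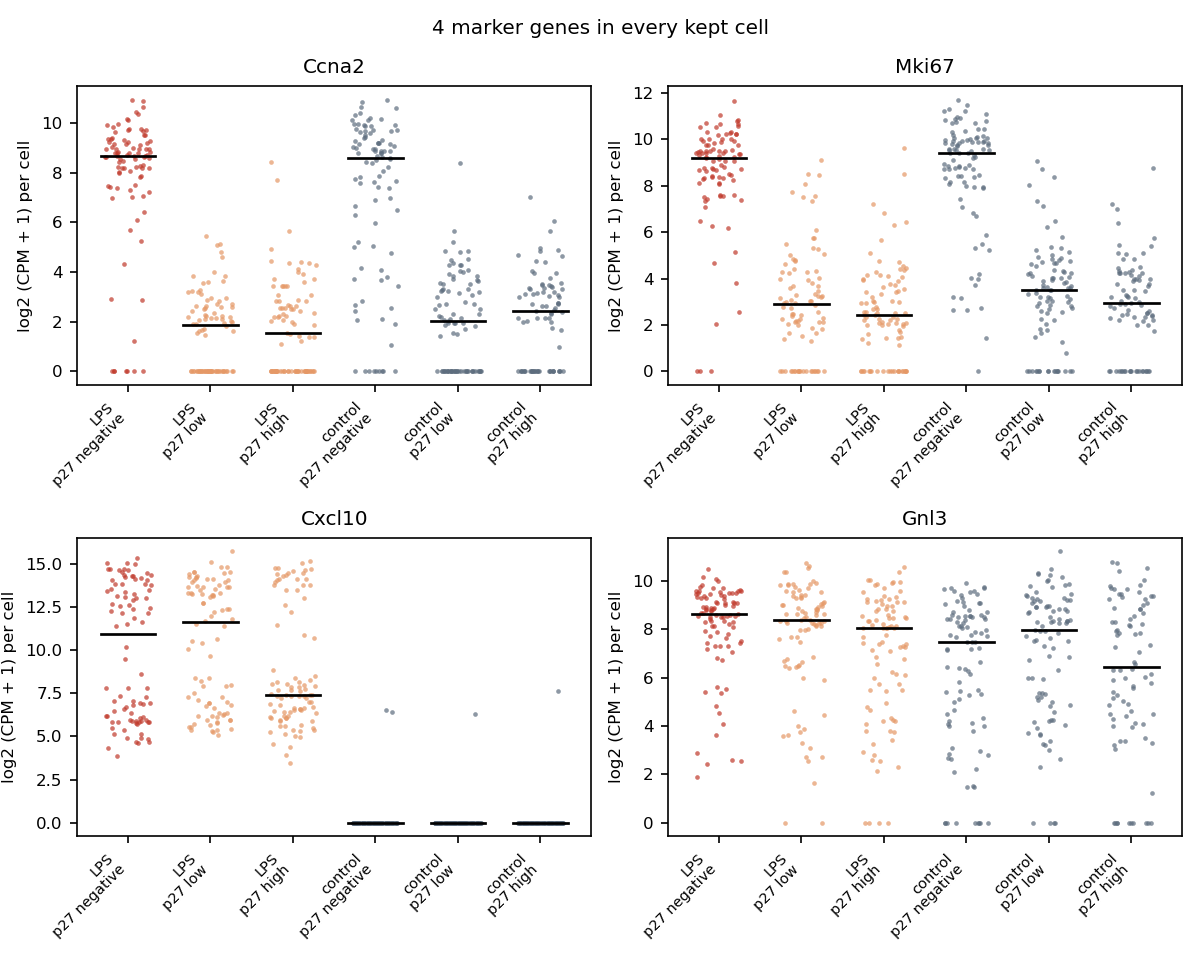
Level of Ccna2, Mki67, Cxcl10 and Gnl3 in every kept cell of the 6 groups, as log2 (CPM + 1) on the vertical axis. Each point is a cell and each bar a group median. LPS p27 negative cells hold high Ccna2 and Mki67 (medians 404 and 592 CPM) together with Cxcl10, which falls into 2 ranges of cells in each LPS group and is at 0 in nearly all control cells.

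To compare detection at 1 depth, every cell was thinned to 50000 gene reads. A median of 4922 genes per cell was then detected (3004 to 5896), 193 genes were found in all 92 cells, and 9210 genes were found in 10 to 90% of cells. Mki67 was detected in 88 of 92 cells, 95.7% (exact binomial interval 89.2 to 98.8%), against 87 of 95 control p27 negative, 31 of 90 LPS p27 low and 32 of 93 LPS p27 high cells. Ccna2 was detected in 82 of 92 cells, 89.1% (80.9 to 94.7%), against 74 of 95, 21 of 90 and 20 of 93. In the low and high p27 cells these shares were 34.4 and 34.4% for Mki67 and 23.3 and 21.5% for Ccna2, at 36.3 and 15.3 CPM and at 3.78 and 9.10 CPM. Both genes were found together in 81 of the 92 cells and neither in 3.

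Cxcl10 was detected in 86 of 92 thinned cells, 93.5% (86.3 to 97.6%), against 88 of 90 LPS p27 low cells, 90 of 93 LPS p27 high cells and 2 of 95 control p27 negative cells, 2.11% (0.256 to 7.40%). Without thinning every one of the 92 cells had a Cxcl10 read and 98.9% had at least 5. The lowest cell had 13.6 CPM, and the lowest of the LPS p27 low and high cells had 33 and 9.92 CPM, where 93 of 95 control p27 negative cells were at 0. The source of these lowest levels was not tested, and a Cxcl10 read alone is not taken as expression. Gnl3 was detected in 85 thinned cells, 92.4% (85 to 96.9%), and in 100% unthinned. It was common in the other groups too. Of 90 LPS p27 low cells 18 held it with Ccna2 and 60 without. Of 93 LPS p27 high cells these were 18 and 58, and of 95 control p27 negative cells 63 and 14. Shares said little about Cxcl10, whose level differed between cells far more than its detection did: 44 cells had under 500 CPM, 1 cell 500 to 1000 CPM and 47 cells at least 1000 CPM.

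Among genes with at least 50 CPM that were detected in 10 to 50% of thinned cells, the 10 with the highest level in positive cells included Ccnf, a cyclin of G2 phase (213 CPM as the median of cells with a read, detected in 44.6%), and Mfsd2b, a sphingosine-1-phosphate exporter (209 CPM, 46.7%). The thrombin receptor F2r was also among them, with 143 CPM in positive cells and detection in 50%. The other 7 were Tmem177, Slc52a2, Msto1, Tmem43, Nt5dc2, Emilin1 and Abhd12, with 133 to 160 CPM in positive cells and detection in 26.1 to 50% of cells.

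Cell-to-cell spread was measured as the squared coefficient of variation and set against the ERCC spike-in RNAs, which are meant to be equal in every well. A curve through 51 spike-ins was used, and a gene was called where its value was at least 2 times the curve. Of 4372 genes with at least 50 CPM, 2596 were called, 59.4%, with a median ratio of 2.20, and 470 lay below the curve. Of the 51 spike-ins, 4 lay above the same line. With reads thinned to 50000 per cell, 1206 of 4459 genes (27%) were called, so the count changed with depth.

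**Figure D2:**
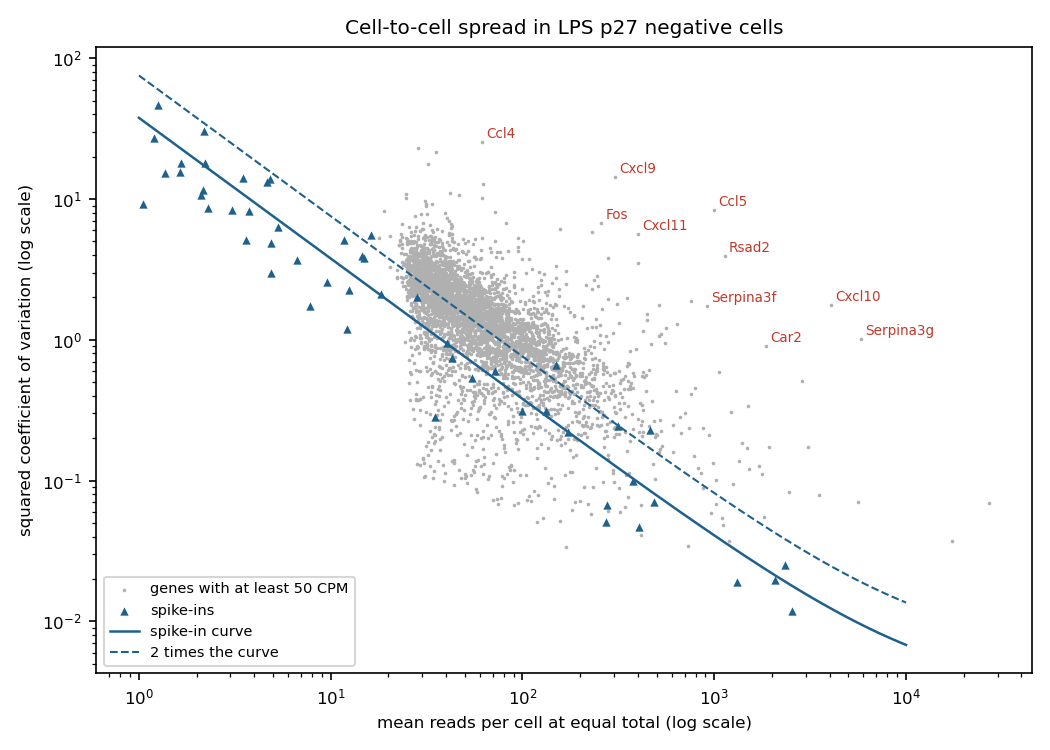
Squared coefficient of variation (vertical, log scale) against mean reads per cell (horizontal, log scale) in the 92 LPS p27 negative cells, for 4372 genes with at least 50 CPM (grey) and 51 spike-ins (triangles). The solid line is the spike-in curve, the dashed line 2 times that curve, and the 10 genes with the largest ratio are named, 5 of which are chemokine genes.

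The 10 genes farthest above the curve were led by the chemokine Ccl5 (ratio 206) and by Cxcl10 (143), Cxcl9 (113) and Rsad2 (108), the last encoding the antiviral enzyme viperin. Serpina3g (106) and its neighbour Serpina3f (39.2), the chemokines Cxcl11 (57.7) and Ccl4 (41.2), the immediate early gene Fos (44.9) and Car2 (38.7) completed them. Cxcl10 and Serpina3g lie above the most abundant spike-in (2550 mean reads), where the curve has no spike-in to rest on. For some of them 1 cell carried much of the reads. Ccl4 took 49% of its summed per-cell CPM from 1 cell and stood at 78.4 CPM with it and 44.1 CPM without it. Cxcl9 took 35.5% from 1 cell, and Cxcl11, annotated as a polymorphic pseudogene in the reference strain, stood at 1066 CPM with its highest cell and 667 CPM without it.

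At the other end, the 10 genes with the smallest ratio, 0.0866 to 0.111, were 9 processed pseudogenes and Rpl9-ps6, among them Gm11539, Rpl9-ps7 and Rpl13a-ps1. Reads of such entries can come from the parent ribosomal protein genes, so their values are uncertain. By list, 9 of 38 tested nuclear respiratory chain genes were called, with a median ratio of 0.923, and 7 of 17 protein synthesis factors, with 1.43. These 2 lists had the smallest median ratios, against a background of 59.4% called, whereas 48 of 49 interferon genes (median ratio 7.46), 35 of 39 G2 and mitosis genes (3.47), 24 of 27 S phase genes (3.08) and 25 of 25 long-term stem cell genes (4.44) were called.

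The cell cycle genes were described by list. Of 40 G2 and mitosis genes a median of 27 was detected per thinned cell, with 2 in the lowest cell and 39 in the highest. At least 20 were found in 80 of 92 cells, 10 to 19 in 5 and fewer than 10 in 7. The same count of at least 20 genes was reached by 0 of 90 LPS p27 low cells, 0 of 93 LPS p27 high cells and 68 of 95 control p27 negative cells. Their summed level ranged from 34.3 through 6438 to 24006 CPM, and 82 of the 92 cells lay above the highest LPS p27 low or high cell. The highest of those cells had 3697 CPM. In control p27 negative cells the sum ranged from 3.33 through 7853 to 29747 CPM, with 33.9 CPM in the next lowest cell. That group holds a cell with 97.9% mitochondrially encoded reads, whose part in these lowest values was not tested.

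Among the members, Top2a, the topoisomerase that untangles chromosomes, stood at 710 CPM and ranged from 0 through 628 to 2198 CPM. Cdk1, the mitotic kinase, stood at 477 CPM and Ccnb2, a B-type cyclin, at 407 CPM. Ccnb2 was more uneven than Cdk1, with ratios to the curve of 13.6 and 5.50. S phase genes were detected at a median of 23.5 of 32 per cell (4 to 32), and 71 cells had at least 20 G2 and mitosis genes together with at least 16 S phase genes. Mcm6, a subunit of the replicative helicase, stood at 791 CPM, Rrm1 and Rrm2, the subunits of ribonucleotide reductase, at 518 and 265 CPM, and Pcna, the sliding clamp, at 241 CPM. Of the 7 cells with fewer than 10 G2 and mitosis genes, 6 also had fewer than 16 S phase genes. Neither count is a phase call.

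Among cyclins and their partners, Cdk4 (901 CPM) and Cdk6 (807 CPM), the G1 kinases, and their cyclins Ccnd2 (679 CPM) and Ccnd3 (448 CPM) were detected in 97.8 to 100% of thinned cells. Cdkn1a, which encodes the CDK inhibitor p21, was found in 47.8% of cells at 123 CPM, and Cdkn1b in 78.3% at 74.9 CPM. Cdkn1b lay slightly below the spike-in curve (ratio 0.912).

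**Figure D3:**
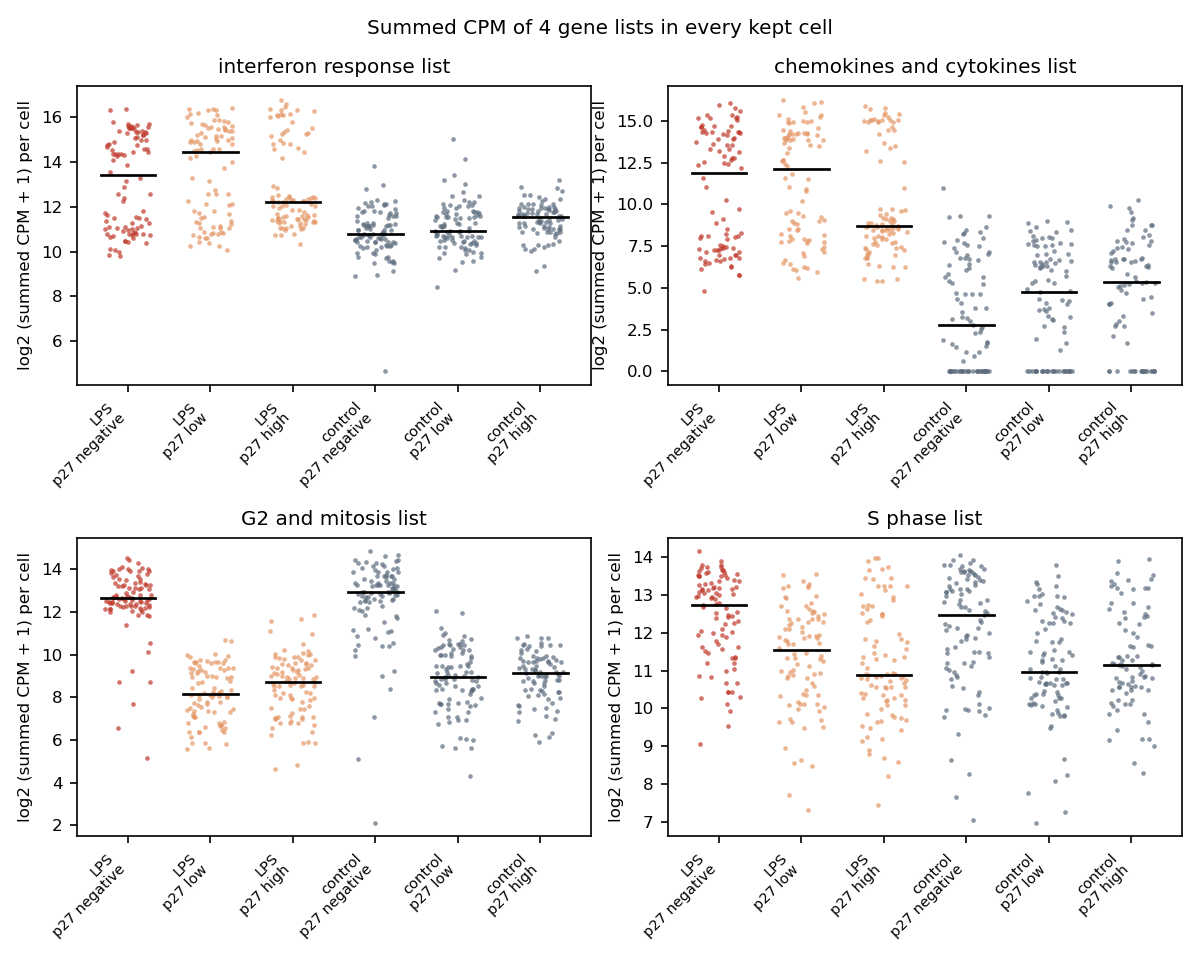
Summed level of the interferon response, chemokine and cytokine, G2 and mitosis and S phase lists in every kept cell of 6 groups, as log2 (summed CPM + 1). Each point is a cell and each bar a group median. In LPS p27 negative cells the G2 and mitosis sum (median 6438 CPM) sits with the control p27 negative cells (7853 CPM), and the interferon sum splits into a lower and a higher range as it does in the other LPS groups.

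The interferon response list had 56 genes, of which 53 stood at 10 CPM or more. Its sum per cell ranged from 883 through 10982 to 85055 CPM, or up to 8.51% of a cell's gene reads. Values fell into 2 ranges: 40 cells lay under 5000 CPM, 44 at or above 15000 CPM and only 8 between, limits that were set after the values were seen. The higher range held 49 of 90 LPS p27 low cells and 29 of 93 LPS p27 high cells. Of the 95 control p27 negative cells none reached 15000 CPM (the highest had 14366 and the next 8017 CPM), and 45 of the 92 LPS p27 negative cells (48.9%, 38.3 to 59.6%) exceeded that highest one. Along the cell numbers of the labels, each of 12 runs of 8 numbers held 2 to 6 cells above that control cell, and the run medians lay between 2641 and 34746 CPM. Cells that differ and animals that differ cannot be told apart, since the labels name no animal.

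Rsad2 had the highest level of the list, 2243 CPM, and ranged from 2.33 through 271 to 27678 CPM. Irf1, a transcription factor of the interferon response, followed with 1212 CPM, Ifit1, which binds foreign RNA, with 1035 CPM, and Irgm1, an immunity-related GTPase, with 1015 CPM. Rsad2 was under 500 CPM in 50 cells, at 500 to 1000 CPM in 5 and higher in 37. The transcripts Ifnb1 and Ifng, for interferon beta and gamma, had no read among 49018367 gene reads, which allows up to 0.0612 CPM (3 counts).

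Chemokines and cytokines were the most uneven list: 7 of 7 tested genes were called, with a median ratio of 57.7, and the sum ranged from 26.6 through 3785 to 67887 CPM. Ccl5, which attracts T cells, stood at 1523 CPM but ranged from 0 through 33.4 to 30621 CPM, with 16 cells at 1000 CPM or more. Cxcl11 had 18 such cells and Cxcl9 had 11. Cytokines of the NF-kB type were found in fewer cells. Il1b was detected in 12% of thinned cells and stood at 90.6 CPM with its highest cell and 25.8 CPM without it. Tnf was detected in 14.1% and Il6 in 17.4%, at 27.4 and 29.1 CPM. Ccl3 stood at 33.1 CPM with its highest cell and 4.70 CPM without it. Il12b and Csf3 had no read.

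NF-kB targets were led by Nfkbia, the inhibitor that closes the pathway's feedback loop, at 1292 CPM with a median of 434 and a highest cell of 10725 CPM. Nfkb1 (388 CPM) and Relb (257 CPM), 2 subunits of the factor, followed, and 13 of 15 tested genes were called for spread. The antigen presentation list was more even: its sum varied 5.18-fold between the lowest and the highest cell, against 96.4-fold for the interferon list.

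**Figure D4:**
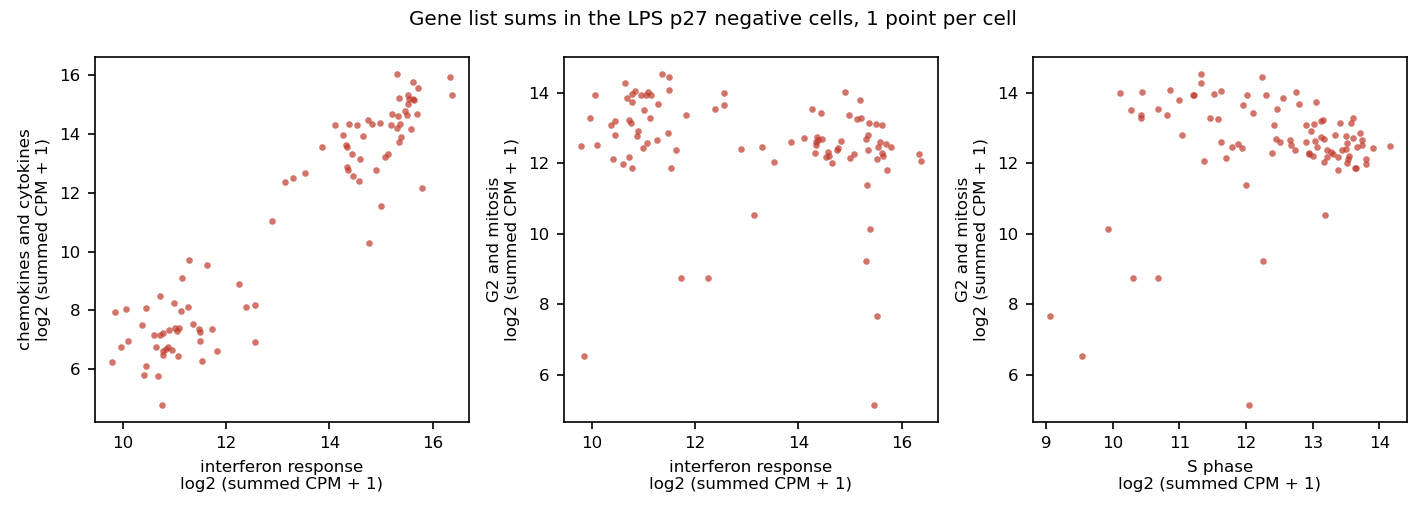
Summed levels of gene lists in the 92 LPS p27 negative cells, 1 point per cell, as log2 (summed CPM + 1): chemokines against interferon response, G2 and mitosis against interferon response, and G2 and mitosis against S phase. The first panel shows 2 separate clouds of cells, and in the middle panel high G2 and mitosis sums are found in both.

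Because the interferon sum fell into 2 ranges, relations with it are given within each range, as Spearman correlations that describe these cells and carry no p-value. All values of a cell share its library and its total. In the 44 higher cells the interferon and chemokine sums had a correlation of 0.61, and in the 40 lower cells 0.30. Interferon and antigen presentation sums gave 0.60 and 0.10. With Myc and nucleotide synthesis genes the interferon sum gave -0.65 in the higher and -0.34 in the lower cells. With respiratory chain genes it gave -0.63 and -0.11, and with ribosome biogenesis genes -0.51 and -0.48, in a total that all lists share. Over all 92 cells the values were, in this order, -0.37, -0.36 and -0.15. With totals that left out the induced lists they were -0.31, -0.17 and -0.05. With G2 and mitosis genes the interferon sum gave -0.31 in the higher cells and 0.11 in the lower. Across all 92 cells S phase and G2 and mitosis sums gave a weak -0.30, which turned to 0.15 as a Pearson correlation of log2 sums. Ribosome biogenesis and Myc and nucleotide synthesis sums gave 0.64 over all 92 cells. S phase and Myc and nucleotide synthesis sums gave 0.52, but 0.73 in the lower interferon range and 0.26 in the higher. Over all 92 cells the interferon sum had a correlation of -0.36 with the number of genes at equal depth, whose part in these relations was not tested.

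For each marker the 5 genes with the most similar level across the 92 cells were taken among 6457 genes found in at least 30% of thinned cells. Ccna2 was followed by Hmgb2 (Spearman 0.58), a chromatin protein, Cenpf (0.56), a kinetochore protein, Tuba1b (0.55), an alpha tubulin, Nusap1 (0.52), a spindle protein, and Knl1 (0.51), a kinetochore scaffold. Mki67 was followed by Hmgb2 (0.57), Cks1b (0.53) and Cks2 (0.51), both small partners of cyclin-dependent kinases, Cdca3 (0.50) and Top2a (0.48). Gnl3 was followed by Srm (0.53), which makes spermidine, the processed pseudogene Gm12669 (0.51), the chaperonin Hspe1 (0.50), Tsen54 (0.50) and Pa2g4 (0.48). The median over all genes compared was 0.06 for Ccna2, 0.04 for Mki67 and 0.05 for Gnl3. Cxcl10 was followed by Rsad2, Ifit1, Cxcl11, Rtp4 and Gbp3. Within the 44 cells of the higher interferon range these gave 0.34 to 0.41, and within the 40 lower cells 0.44 to 0.56.

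Growth genes were widespread. Of 36 ribosome biogenesis genes all stood at 10 CPM or more, and a median of 27 was detected per cell (12 to 34). Ncl, which encodes nucleolin, stood at 1849 CPM, Npm1, nucleophosmin, at 686 CPM, and Dkc1, the pseudouridine synthase of box H/ACA particles, at 463 CPM. Gnl3 ranged from 2.73 through 399 to 1445 CPM. Myc stood at 372 CPM and was detected in 87% of thinned cells, and its family member Mycn at 187 CPM in 64.1%. Ldha, which makes lactate, led the glycolysis list with 1445 CPM.

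The stem cell list gave a level for each of its 40 genes, 33 of them at 10 CPM or more, and a median of 19 was detected per cell. Lmo2, a bridging factor of blood transcription complexes, stood at 663 CPM. Hlf, a transcription factor of long-term stem cells, was found in 42.4% of thinned cells at 53.7 CPM, and Mecom in 41.3% at 57.2 CPM. Among the genes of the sort, Kit stood at 213 CPM, Slamf1, which encodes CD150, at 68.9 CPM and Cd48 at 3.96 CPM (2.52 CPM without its highest cell). Ly6a, which encodes Sca-1, stood at 455 CPM and was uneven, from 1.10 through 156 to 5927 CPM.

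Outside the erythroid and platelet lists, markers of other blood and stromal cells were mostly at or near 0. Of 18 granulocyte and monocyte genes 9 were under 1 CPM, and the neutrophil elastase Elane had 0.0408 CPM. Cd3e, Rag1 and Dntt of lymphocytes, Adgre1 of macrophages and Cdh5 of endothelium had no read. Prtn3 (108 CPM), Nkg7 (121 CPM), Lyz2 (348 CPM) and Vim (338 CPM) were higher. The summed granulocyte and monocyte level was 159 CPM (single cells 0 to 817), against 383 CPM in LPS p27 low (0 to 4238), 565 CPM in LPS p27 high (0 to 4923) and 212 CPM in control p27 negative cells (0 to 2830). Macrophage genes summed to 366 CPM against 481, 564 and 630 CPM, lymphoid genes to 180 against 248, 138 and 260 CPM, and endothelial and stromal genes to 431 against 656, 498 and 437 CPM. Mast cell genes summed to 60.6 CPM against 220, 99.5 and 9.40 CPM. Single genes weighed heavily in these sums. Gzmb, a granzyme not particular to mast cells, held 188 CPM in LPS p27 low cells, and Hdc 80 CPM in LPS p27 high cells. Of the 9 mast cell genes 5 had no read in LPS p27 negative cells. Lyz2 held most of the macrophage sum here, and Vim most of the endothelial and stromal sum. The part of other cells in the comparisons with these groups was not tested. Platelet genes were present, with Pf4 at 471 CPM (0 through 28 to 5835 CPM, detected in 59.8% of cells) and Itga2b, the fibrinogen receptor subunit, at 333 CPM. The erythroid list summed to 4386.5 CPM (single cells 400 to 19564), of which Car2 held 4131 CPM. Its sum was 4030 CPM in LPS p27 low (Car2 3693 CPM), 2391 CPM in LPS p27 high (Car2 2202 CPM) and 4044 CPM in control p27 negative cells. Such sums say little about the other erythroid genes, whose folds are given below. Gata1, the erythroid and platelet factor, was detected in 42.4% at 91.2 CPM. The haemoglobin genes Hba-a1, Hbb-bs and Hbb-bt stood at 0.163, 0.755 and 18.7 CPM. Hbb-bs and Hbb-bt are near-identical copies, so their split is uncertain.

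Against p27 negative cells of control marrow, which differ in treatment, 9948 genes reached 10 CPM in 1 of the groups or both and were compared. A log2 fold of (CPM + 1) of at least 1 was reached by 580 genes that were higher after LPS, 5.83%, and by 989 that were lower, 9.94%. The median over all genes was -0.13, which TMM scaling moved to -0.01, with 711 higher and 792 lower genes. Of 54 interferon genes compared, 53 were higher by that limit, with a median log2 fold of 3.39. The exception was Irf8, a factor of myeloid development, with 7.65 against 36.8 CPM. Of 13 chemokine and cytokine genes 12 were higher (median 4.26), and of 20 NF-kB genes 13 (median 1.73). No G2 and mitosis gene of 40 passed the limit in either direction (median -0.23), and 1 of 32 S phase genes did, the uracil-DNA glycosylase Ung (27.6 against 12.7 CPM).

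Cxcl10 stood at 7750 against 2.77 CPM, a log2 fold of 11.01. In single control cells it was at 0 in 93 of 95 and reached 91.1 CPM at most. Cxcl9, Mx2, Cd83, Tnfrsf9 and Gm10851 had no read in the control cells. Against a floor of 3 reads over the group, the level after LPS was at least 7818-fold higher for Cxcl9, 1474-fold for the antiviral Mx2, 1058-fold for Cd83, whose level was 76.3 CPM with its highest cell and 45.6 CPM without it, and 1016-fold for the costimulatory receptor Tnfrsf9. For Gm10851, an antisense entry whose reads cannot be told apart from a partner on the other strand, the bound was 1956-fold. Cxcl11 and Mx1 had 1 control read each, and the ratios were 44310 (7952 to 1750000) and 7523 (1350 to 297200). Tm4sf1, a membrane protein, had 2 control reads and a ratio of 2142 (593 to 17690). Ccl5 completed the 10 with a log2 fold of 8 (1523 against 4.95 CPM).

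Lowest by fold was Car1, a carbonic anhydrase of early red cell development, at 2.08 CPM after LPS against 384 CPM in control cells (log2 fold -6.97). Plk2, a polo-like kinase, stood at 2.57 against 27.6 CPM. At most 37.4 CPM in control cells was reached by 7 other genes among the 10 lowest, Zxdb, A130014A01Rik, Zfp623, Plpp6, Tmem184c, Rab3il1 and Myl10, whose log2 folds were -3.49 to -3.26. Among growth genes 33 of 36 ribosome biogenesis genes were higher after LPS, but only Bysl and Pes1 passed the limit (median 0.61). That count is near the 5.83% of all genes that passed it upward. Gnl3 stood at 457 against 238 CPM, a log2 fold of 0.94. Ccnd2 stood at 679 against 337 CPM (1.01) and Cdkn1a at 123 against 27.8 CPM (2.11). Ly6a stood at 455 against 49.7 CPM (3.17), and as a gene of the sort its level cannot be told apart from the gate.

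Against the p27 low cells of the same treatment 9791 genes were compared, of which 890 (9.09%) were higher and 717 (7.32%) lower in p27 negative cells. Against p27 high cells 10049 genes were compared, with 714 (7.11%) higher and 1216 (12.1%) lower. These comparisons and the one before share the LPS p27 negative cells, so their values are given side by side and not correlated. G2 and mitosis genes were higher for 40 of 40 genes against p27 low cells (median 4.87) and for 39 of 40 against p27 high cells (median 4.43). The gene short of the limit was Hjurp, a centromere chaperone, with 286 against 167 CPM. S phase genes passed the limit upward for 18 of 32 and 12 of 32 genes (medians 1.13 and 0.75). In each comparison 1 S phase gene passed it downward, Ung, with 27.6 CPM against 62.2 and 127 CPM. Of 36 ribosome biogenesis genes 0 passed the limit in either direction against p27 low or p27 high cells (medians -0.01 and 0.28). Gnl3 stood at 457 CPM against 441 and 328 CPM (log2 folds 0.05 and 0.48). Over all genes the medians were -0.03 and -0.07.

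Ccna2 had the largest fold against p27 low cells, 501 against 3.78 CPM (6.72), and stood at 9.10 CPM in p27 high cells (5.64). Ccnb2 led against p27 high cells, 407 against 2.22 CPM (6.98), with 4.54 CPM in p27 low cells (6.20). Ube2c, which marks mitotic cyclins for destruction, gave 6.64 and 6.75. Mki67 gave 4.14 and 5.33, from 36.3 and 15.3 CPM. The other 7 of the 10 largest folds against p27 low cells were those of Cdca8, Nuf2, Cdca5, Spc25, Pbk, Aurkb and Cenpf, from 6.58 down to 6.0. Against p27 high cells they were those of Plk1, Cenpf, Ankle1, Pimreg, Kif4, Kif20a and Nusap1, from 6.53 down to 5.62. Mcm6 differed little, at 791 CPM against 839 and 840 CPM. Of 14 histone genes compared, 10 and 9 were higher, where 9.09 and 7.11% of all genes were. Hist1h1b, a linker histone, stood at 225 CPM against 14.4 and 5.56 CPM.

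Of 54 interferon genes compared with the other LPS groups, none passed the limit upward, and 5 and 7 passed it downward (medians -0.35 and -0.15), where 7.32 and 12.1% of all genes did, so these counts are near the background. Ifit3, Ifit3b, Irf8, Ifi204 and Slfn5 did so in both, and Gbp4 and Gbp6 against p27 high cells. Of 14 chemokine and cytokine genes, 3 were higher and 4 lower than in p27 low cells (median -0.35). Against p27 high cells 5 were higher and 3 lower (median -0.20). Of all genes 9.09 and 7.11% were higher. Among the 5, Ccl3 (33.1 against 15.9 CPM, log2 fold 1.01) was just past the limit and rested mostly on its highest cell, as given above. Il6 was lower in both comparisons, with 29.1 CPM against 65.7 and 222 CPM. Il1b, Tnf and Ccl2 were higher in both: Il1b with 90.6 CPM (25.8 CPM without its highest cell) against 33.7 and 10.2 CPM, Tnf with 27.4 CPM against 9.94 and 12 CPM. Without its highest cell Il1b lay below the level of p27 low cells, which is given with all cells. Tnf was found in few cells, as given above. Ccl2 stood at 10.1 CPM against 3.67 and 0.841 CPM and was found in 5 thinned cells. Cxcl10 differed little, with log2 folds of 0.09 and 0.43, while its cell medians were 1951 CPM here, 3141 CPM in p27 low and 166 CPM in p27 high cells. Cxcl9 stood at 564 CPM against 724 and 101 CPM. Lower in p27 negative cells were Lcn2, a neutrophil siderophore-binding protein, with 1.90 CPM against 115 and 106 CPM, Ms4a4c with 1.24 CPM against 88.5 and 45.1 CPM, and the chemokine Ccl9 with 9.94 CPM against 263 and 124 CPM.

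The remaining 7 lowest genes against p27 low cells were Ms4a4b (0.184 against 68.4 CPM), Gzmb, the cytotoxic granzyme (-3.41), AI987944, Ly6c1, 2900018N21Rik, Sipa1l3 and Slfn5. Ly6c1 moved from a log2 fold of -3.02 to -0.16 without the highest cell of each group, so the highest cells decided it. Against p27 high cells the others were Sult1a1, a sulfotransferase (18.4 against 315 CPM, -4.02), Tmem37, Chrnb1, Ifi211, Tinagl1, Gm26510 and Ldhd (-3.83 to -3.44). Immediate early genes were lower for 10 of 17 genes against p27 high cells (median -1.11) and for 4 of 17 against p27 low cells (-0.54). Fos, for example, stood at 479 against 1044 and 697 CPM. Of stem cell genes 14 of 37 were lower and 1 higher against p27 high cells (median -0.61), where 12.1% of all genes were lower. Against p27 low cells 3 of 34 were lower and 0 higher (median -0.23), near the 7.32% of all genes that were lower. Hlf stood at 53.7 CPM against 171 CPM in p27 high and 27.8 CPM in p27 low cells, and Mecom at 57.2 CPM against 95.4 and 34.6 CPM. Txnip, an inhibitor of thioredoxin, stood at 432 CPM against 1033 and 647 CPM. Of 16 platelet genes 8 were higher and 2 lower than in p27 high cells (median 1.07), but 0 were higher and 1 lower of 15 against p27 low cells (median 0.07), and 2 were higher and 4 lower of 16 against control p27 negative cells (median -0.44). Of all genes 7.11, 9.09 and 5.83% were higher in these comparisons, and 12.1, 7.32 and 9.94% lower. The platelet counts against p27 low cells are near that background. Pf4 stood at 471 CPM against 67.6 CPM in p27 high, 403 CPM in p27 low and 687 CPM in control p27 negative cells. Gata1, counted in the erythroid list, stood at 91.2 CPM against 8.95, 130 and 182 CPM in the same order. Of 8 erythroid genes 3 were higher and 1 lower than in p27 high cells (median 0.23). Against p27 low cells 0 were higher and 2 lower of 9 (median -0.15). Against control p27 negative cells 1 was higher and 4 lower of 10 (median -0.95).

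**Figure D5:**
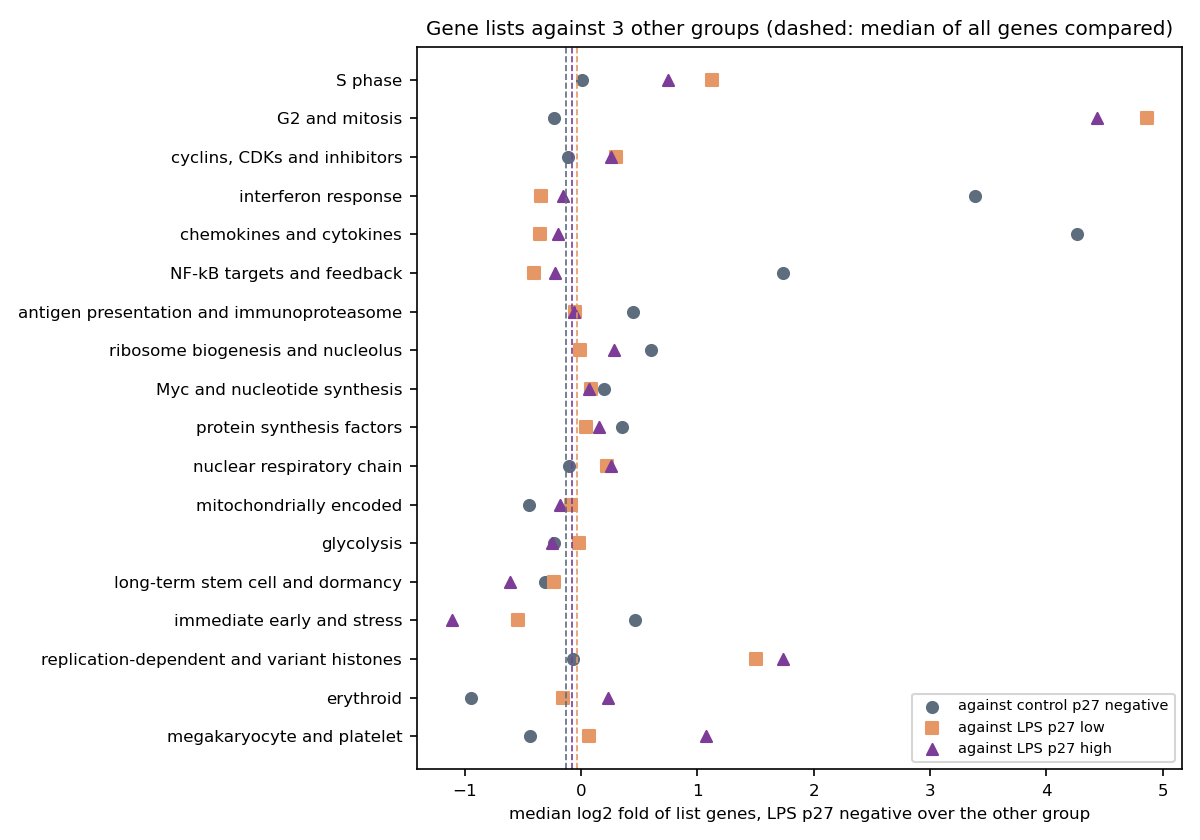
Median log2 fold of the genes of 18 lists in LPS p27 negative cells over control p27 negative (circles), LPS p27 low (squares) and LPS p27 high cells (triangles). Dashed lines give the median over all genes compared, and the lists that stand farthest from it are interferon and chemokine genes against control cells (3.39 and 4.26) and G2 and mitosis genes against p27 low and high cells (4.87 and 4.43).

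Depth and RNA quality moved with some of these groups. The LPS p27 negative cells had 80224 to 1878063 gene reads (median 439919), LPS p27 low cells a median of 287585 and LPS p27 high cells 284633. At equal depth a median of 4922 genes was detected in LPS p27 negative cells, 3977 in p27 low, 3962 in p27 high and 4875 in control p27 negative cells. Spike-ins took a median of 2.12% of reads in LPS p27 negative cells and 3.96, 3.86 and 4.42% in the other groups. Mitochondrially encoded reads were 3.41 to 8.86% in LPS p27 negative cells, and 1 kept control p27 negative cell had 97.9%. Without cells above 10% the counts against that group were 574 and 1019. The part of depth and RNA amount in the folds was not tested.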

How the data were processed

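RNA of single sorted cells was measured, 1 library per cell, by the protocol of Picelli and colleagues with Nextera XT libraries, per the labels. The authors deposited raw counts of reads per gene, and no normalization had been applied to these counts. Per the submitters' processing notes, GSNAP (2015-09-29) and HTSeq 0.6.0 were used with mm10. Strand setting and annotation release are not stated there, so overlapping and antisense genes cannot be told apart. There were no molecular identifiers, and reads are not independent molecules. Of 46078 gene entries 45143 were named by GENCODE M21, which also gave exon lengths. The 5 summary rows were left out. No 2 cells had identical counts.

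Levels were computed as CPM of summed reads with exact Poisson intervals, detection after thinning to 50000 reads with Clopper-Pearson intervals (confidence 95%), and spread against a curve of squared coefficient of variation on mean reads fitted to spike-ins (a gamma model, statsmodels 0.14.6). Folds used 1 CPM added and genes with at least 10 CPM in the higher group. No test was run, since each group is 1 sample, and no clustering and no doublet removal were done, the cells having been sorted singly. TMM factors came from edgeR 4.0.16. Scripts for spread, thinning and folds were tested on simulated data. Promoters came from RefSeq. Named genes were the 10 highest by CPM and per kilobase, the 10 with largest and smallest spread ratio, the 10 highest in positive cells among genes found in 10 to 50% of cells, the highest members of each of 24 lists, the 10 highest and lowest folds (read in at least 20% of cells of the higher group), and the 5 nearest genes of each marker. The 10 highest and lowest folds were taken only where summed CPM and the mean of per-cell CPM gave the same sign. Members and lists were chosen with earlier results of these data known, and list members outside the highest 4 were chosen after their values were seen. Of all list genes 1 had no entry. Some genes that this rule names are not reported here.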

Additional observations from a re-analysis of the deposited data

How the results depend on the processing

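No paired analysis was possible because each group is 1 sample and cell numbers pair nothing. The folds varied were 60 named ones, the 10 highest and 10 lowest of each comparison. Under 9 alternatives, 539 of 540 values kept their direction and stayed past the limit, none reversed, and the exception was Ly6c1. Part of this count was fixed in advance. The folds were picked for their size and for the same sign in the mean of per-cell CPM, which is 1 of the alternatives. A level filter does not change a fold, and LPS p27 negative and LPS p27 high held 0 cells above 10% mitochondrially encoded reads. The count therefore says little about smaller folds. The level filter moved the counts of genes. With at least 1 CPM in the higher group, 1302 genes were higher and 1852 lower against control p27 negative cells, 1830 and 1524 against LPS p27 low cells, and 1477 and 2203 against LPS p27 high cells. With at least 50 CPM these were 247 and 252, 323 and 170, and 288 and 358. TMM scaling raised the higher share of calls against control cells from 37 to 47.3%. For spread, 1206 genes were called with thinned reads, 4607 with a filter of 10 CPM and 616 with 200 CPM. Shares of cells rose without thinning: Cxcl10 to 100% with 1 read or in cells thinned to 200000 reads and 98.9% with 5 reads, and Gnl3 to 100% in both of the first settings. The S phase and G2 and mitosis correlation was 0.15 by Pearson on log2 sums, -0.45 in the lower interferon range and -0.18 in the higher. The interferon and chemokine correlation in the higher range, 0.61, was 0.30 in the lower range and 0.88 over both ranges. That of interferon and G2 and mitosis, -0.31, was 0.11 in the lower range and -0.21 with totals that left out the induced lists. Settings by cell number, interferon range, totals without induced lists and mitochondrial share of both groups were added after the data were seen. Without the highest cell of each gene 1025 genes were higher and 517 lower against LPS p27 low cells. The cause of these changes was not tested. A group without named animals limits every statement to these cells, and at 50000 reads a gene near 1 read per cell is missed in part.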

Other observations

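Other list members differed between LPS p27 negative and control p27 negative cells. Cish, a feedback inhibitor of cytokine signalling, stood at 247 CPM against 36.6 CPM in control p27 negative cells (log2 fold 2.72). Hk2, a hexokinase, stood at 46.5 against 10.2 CPM (2.08), and Selp, the adhesion receptor P-selectin, at 65.5 against 12.2 CPM (2.33). Atf3, a stress-induced factor, had 27.8 CPM and no read in the control cells (at least 385-fold higher, against 3 reads). Esam, an adhesion molecule of stem cells, went the other way with 94.3 against 197 CPM (-1.06), as did Cd34 with 212 against 462 CPM (-1.12) and Klf1, the erythroid factor, with 6.75 against 51.7 CPM (-2.77). These were picked from the lists after their values were seen.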
